A study of Mus musculus with 6 samples.

Results

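The genes described here are 9 genes of embryonic red blood cells: the embryonic globins Hbb-y, Hbb-bh1 and Hba-x, the adult-type alpha globins Hba-a1 and Hba-a2, and Alas2, Gata1, Klf1 and Slc4a1. They were looked up by symbol among the 23284 genes of the deposited expression table, and 8 of the 9 have a row of their own. The remaining gene, Hba-a1, has a row that names Hba-a1 and Hba-a2 together and gives the position of Hba-a2. The RNA was taken from the heart ventricles of mouse embryos at E9.5, with 3 WT and 3 KD embryos (Tbx5ua -/- in the labels). Both groups were tetraploid complementation chimeras grown from C57BL/6J ES cells, in which the embryo derives from the injected ES cells while the tetraploid host cells form mainly the trophoblast and the yolk sac endoderm. The KD ES cells had been edited with CRISPR/Cas9 at the lncRNA Tbx5ua. Its second exon held, on each allele, 3 tandem polyadenylation signals from bovine growth hormone, meant to end the transcript early. More than a single ES cell line was used for KD embryos, and which embryo came from which line is not given in the sources used here. The table holds 1 FPKM value per group (fragment counts corrected for transcript length and library size, here the authors' value for 3 embryos together). From these values no spread between embryos, test or interval could be computed for any difference, and the depth of the libraries is unknown. The authors' own p-values and q-values for this comparison were not used.

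Primitive erythroid cells arise in the blood islands of the yolk sac, enter the circulation when the heart begins to beat, and mature in the bloodstream. They make haemoglobin from the embryonic globin chains zeta (Hba-x), epsilon-y (Hbb-y) and beta-H1 (Hbb-bh1) together with the alpha chains of the adult (Hba-a1 and Hba-a2), whereas definitive red cells from the fetal liver use the adult beta chains. The transcription factors Gata1 and Klf1 drive the globin genes and the genes of haem synthesis and of the red cell membrane. The libraries were made from RNA of whole ventricles, which does not show in which cells a transcript lay, and in such RNA fewer red cells and less RNA per red cell cannot be told apart.

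The sequences show how far the globin genes can be told apart. The first 60 coding bases of each gene, read from the GENCODE transcripts of release M21 (GRCm38), are shown for the alpha-like genes, with capitals where a base differs from Hba-a2. They lie in the first exon, on the plus strand of chromosome 11, at chr11:32283707-32283766 for Hba-a1, chr11:32296524-32296583 for Hba-a2 and chr11:32276664-32276723 for Hba-x.
Hba-a1: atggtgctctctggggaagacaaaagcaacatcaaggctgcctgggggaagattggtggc
Hba-a2: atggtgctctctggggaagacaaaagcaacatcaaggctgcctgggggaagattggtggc
Hba-x: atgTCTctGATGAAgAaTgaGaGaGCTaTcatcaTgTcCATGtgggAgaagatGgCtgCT
Hba-a1 and Hba-a2 did not differ in this stretch, and over their 429 coding bases they differed at 1 position. Hba-x differed from Hba-a2 at 28 of the 60 bases and was 61.8% identical to it over the coding sequence, with a longest shared run of 18 bases. Hba-x is thus easily told from its neighbours by sequence, while reads from the stretches that Hba-a1 and Hba-a2 share, up to 415 bases of their transcripts in 1 run, cannot be told apart.

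The beta-like genes lie on the minus strand of chromosome 7, and capitals mark bases that differ from the adult gene Hbb-bs. The stretches are chr7:103853093-103853152 for Hbb-y, chr7:103843051-103843110 for Hbb-bh1, chr7:103827816-103827875 for Hbb-bs and chr7:103813810-103813869 for Hbb-bt, all in the first exon.
Hbb-y: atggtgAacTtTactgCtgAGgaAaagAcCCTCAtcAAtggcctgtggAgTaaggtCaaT
Hbb-bh1: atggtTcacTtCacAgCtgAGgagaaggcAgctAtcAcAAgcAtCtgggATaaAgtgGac
Hbb-bs: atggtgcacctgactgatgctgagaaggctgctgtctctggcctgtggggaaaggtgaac
Hbb-bt: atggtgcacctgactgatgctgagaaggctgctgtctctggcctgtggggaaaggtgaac
Hbb-y and Hbb-bh1 were 76.4% identical to each other over 444 coding bases and shared no run longer than 26 bases. Against Hbb-bs, Hbb-y was 74.3% identical and Hbb-bh1 74.1%. The adult genes Hbb-bs and Hbb-bt, which C57BL/6 mice carry, differed at 1 coding base, so the split of reads between the adult beta rows is uncertain in the same way as between the adult alpha rows.

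Hba-x, the zeta chain, had 4401 FPKM in WT against 4318 FPKM in KD. Hbb-y, the epsilon-y chain, had 4138 FPKM in WT against 4453 FPKM in KD. Hbb-bh1, the beta-H1 chain, had 2882 FPKM in WT against 2725 FPKM in KD. All 3 embryonic globins were thus among the most abundant transcripts of the ventricle in both groups, and the KD value lay within 8% of the WT value for each. As a percentage of WT, Hbb-y was 7.62% higher, Hbb-bh1 changed by -5.46% and Hba-x by -1.88%. On the scale log2(FPKM + 1), KD minus WT, these differences are 0.11 for Hbb-y, -0.08 for Hbb-bh1 and -0.03 for Hba-x. For comparison, 178 genes had a mean FPKM of at least 1000, a range chosen after the values were seen. Regardless of direction, 48.3% of them differed by less than Hbb-y did, 35.4% by less than Hbb-bh1 and 12.4% by less than Hba-x. Their log2 differences were not centred on 0, with a median of 0.09 and an interquartile range of 0.00 to 0.15. Hbb-y lay within that range, and Hbb-bh1 and Hba-x lay below it.

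Hba-a2, an alpha chain gene that stays active in adult red cells, had 323 FPKM in WT against 410 FPKM in KD, a log2 difference of 0.34. The joint row of Hba-a1 and Hba-a2 was listed at 0.00354 FPKM in WT against 0.00327 FPKM in KD. With identical sequence over long stretches, this near-zero value cannot be read as the level of Hba-a1 alone, and the Hba-a2 row may hold reads of both genes. The order of the globins in WT was Hba-x, Hbb-y, Hbb-bh1 and Hba-a2. In KD, Hbb-y stood above Hba-x, by a margin that cannot be weighed without values of single embryos.

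**Figure D1:**
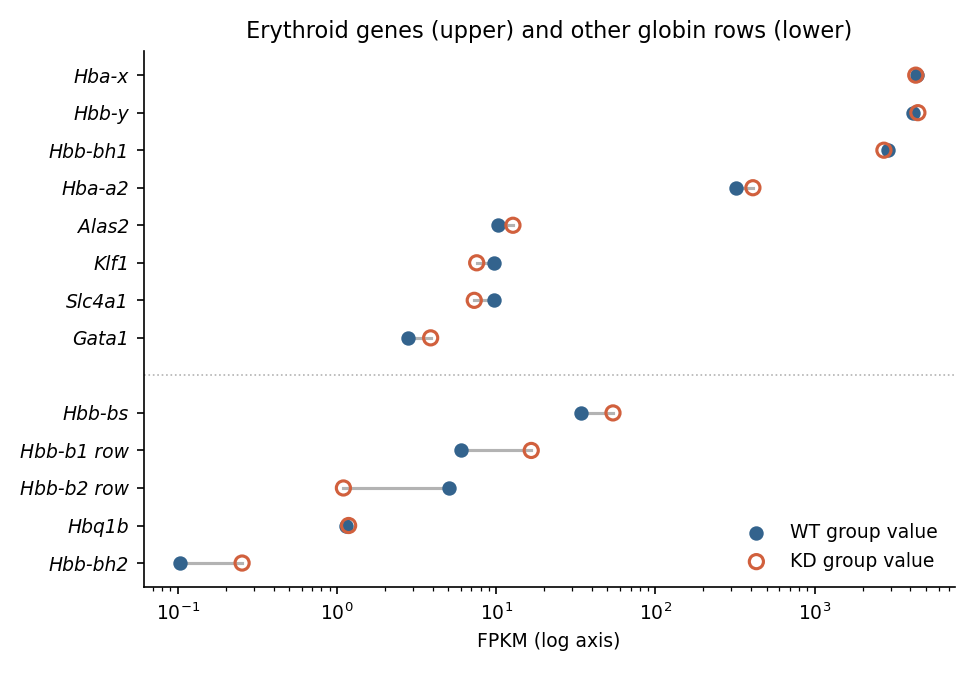
FPKM of the 8 genes with a row of their own (upper) and of the other globin rows above 0 (lower) on a log axis, with a filled point for the WT group value and an open point for the KD group value, each the authors' value for 3 embryos. The 3 embryonic globins lie between 2725 and 4453 FPKM in both groups, and the widest gaps are in the low Hbb-b1 and Hbb-b2 rows.

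The other globin rows were far lower. Hbb-bs, an adult beta chain gene of this strain, listed under its older name Beta-s, had 34.0 FPKM in WT against 54.2 FPKM in KD, a log2 difference of 0.66. The row of Hbb-b1, which also names Hbb-b2, had 6.06 FPKM in WT against 16.6 FPKM in KD. The row of Hbb-b2 alone had 5.05 FPKM in WT against 1.10 FPKM in KD. Both of these rows carry a single position that overlaps Hbb-bt in the GENCODE annotation, so their opposite differences are not 2 separate measurements. Their sum was 11.1 FPKM in WT against 17.7 FPKM in KD, 1.60-fold higher in KD, and Hbb-bs was 1.59-fold higher in KD. Hbb-bh2, a weakly expressed gene of the same cluster, had 0.104 FPKM in WT against 0.254 FPKM in KD. The theta-like gene Hbq1b had 1.14 FPKM in WT against 1.18 FPKM in KD, and Hbq1a was listed at 0 in both groups. No row was found for Hbb-bt under its own name.

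In sums over the clusters, Hbb-y and Hbb-bh1 made up 99.4% of the beta-like FPKM in WT and 99.0% in KD, with Hbb-y alone at 58.6% and 61.4%. The adult beta rows held 0.638% in WT and 0.992% in KD, which corresponds to 45.1 and 71.9 FPKM. The ratio of Hbb-y to Hbb-bh1 was 1.44 in WT and 1.63 in KD. Among the alpha-like genes Hba-x held 93.2% in WT and 91.3% in KD, and Hba-a1 with Hba-a2 held 6.83% and 8.67%. The summed adult-type chains of both clusters thus had the larger value in KD, while embryonic chains held most of each cluster's FPKM in both groups. The summed alpha-like FPKM was 4723 in WT and 4728 in KD, and the summed beta-like FPKM was 7065 in WT and 7250 in KD. All globin rows together held 1.37% of the summed FPKM of the table in WT and 1.36% in KD. Actc1, a cardiomyocyte gene listed at 0 for too many reads, adds nothing to this sum.

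**Figure D2:**
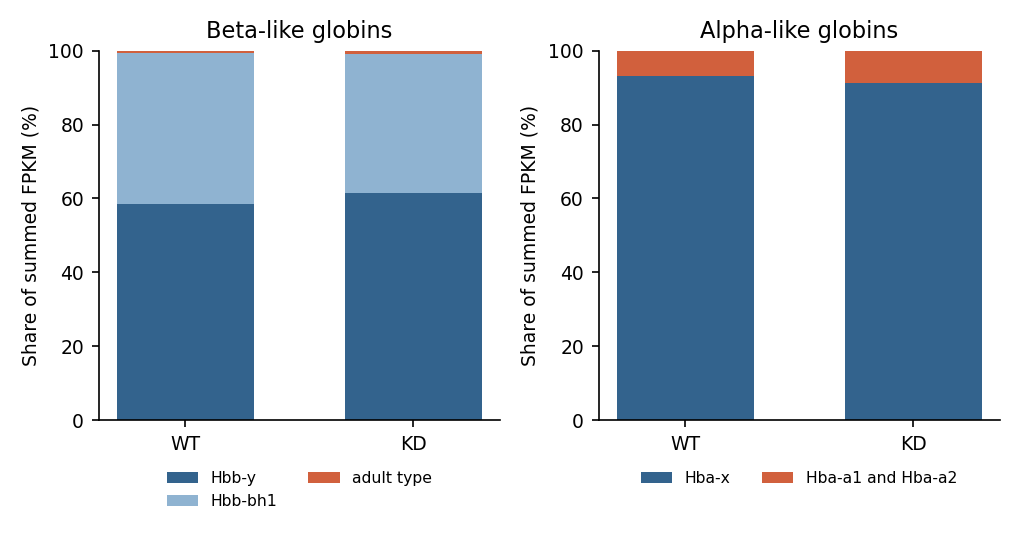
Share (%) of each chain in the summed FPKM of the beta-like globins (left) and of the alpha-like globins (right), 1 bar per group value. Embryonic chains fill 99.4% of the WT beta bar and 93.2% of the WT alpha bar, and the adult-type segments are wider in KD, at 0.992% and 8.67%.

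The stretches upstream of these genes show what the embryonic and adult globins have in common. The 150 bases before the start site are given 5′ to 3′ on the gene's strand, from RefSeq (GRCm38.p6), for 2 embryonic and 2 adult-type globins. They span chr7:103853208-103853357 (minus strand) for Hbb-y, chr11:32276450-32276599 (plus strand) for Hba-x, chr11:32296342-32296491 (plus strand) for Hba-a2 and chr7:103827929-103828078 (minus strand) for Hbb-bs. Capitals mark matches on either strand to the GATA motif in the form AGATAA and in the form TGATAA, to CACCC (the core of the box that Klf1 binds), to the box CCAAT, and to a TATA-like box in the form TATAAA, in the form TATAAG and in the form CATAAA.
Hbb-y: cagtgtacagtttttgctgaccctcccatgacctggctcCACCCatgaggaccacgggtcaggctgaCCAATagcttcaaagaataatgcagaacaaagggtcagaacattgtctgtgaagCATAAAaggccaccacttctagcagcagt
Hba-x: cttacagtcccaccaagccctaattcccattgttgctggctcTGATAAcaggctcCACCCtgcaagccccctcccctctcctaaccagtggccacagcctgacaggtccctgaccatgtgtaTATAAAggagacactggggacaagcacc
Hba-a2: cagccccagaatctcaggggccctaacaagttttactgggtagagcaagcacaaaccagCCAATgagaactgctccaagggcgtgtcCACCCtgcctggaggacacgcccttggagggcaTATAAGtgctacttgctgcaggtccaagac
Hbb-bs: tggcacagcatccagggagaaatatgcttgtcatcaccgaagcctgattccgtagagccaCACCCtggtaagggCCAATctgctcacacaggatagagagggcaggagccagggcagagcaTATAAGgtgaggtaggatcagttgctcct
RefSeq promoters were at hand for 7 of the 9 genes, all but Hbb-bh1 and Slc4a1. A CACCC match was found in 7 of these 7 and in 37.4% of 32851 mouse promoters of the same length. The GATA motif was found in 3 of the 7 (Hba-x, Alas2 and Klf1) against 9.65% of promoters, CCAAT in 4 against 24.5%, and the TATA-like box in 4 against 15.8%. No marked match overlaps another in the stretches shown. Hba-a1 and Hba-a2 did not differ over 297 aligned bases of the longer RefSeq stretches, which run past the start site, and these take in most of the windows searched here. Counted as 1 sequence, they leave 6 sequences, of which 6 hold CACCC, 3 the GATA motif, 3 CCAAT and 3 the TATA-like box. These matches describe letters in a window and not binding.

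Alas2, on chromosome X at chrX:150547417-150570622, encodes the erythroid form of the enzyme that starts haem synthesis. It had 10.3 FPKM in WT against 12.8 FPKM in KD, a log2 difference of 0.28. Gata1, at chrX:7959260-7967815, encodes the GATA factor required for red cells and megakaryocytes. Its level was 2.80 FPKM in WT against 3.88 FPKM in KD, a log2 difference of 0.36. Both X-linked genes had the larger value in KD.

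Klf1, at chr8:84901928-84905295, encodes the erythroid Krüppel-like factor that binds CACCC boxes of globin genes. It had 9.75 FPKM in WT against 7.55 FPKM in KD, a log2 difference of -0.33. Slc4a1, at chr11:102348820-102365281, encodes band 3, the anion exchanger that anchors the red cell skeleton to the membrane. It had 9.69 FPKM in WT against 7.29 FPKM in KD, a log2 difference of -0.37. Klf1 and Slc4a1 thus lay below their WT value while Gata1 and Alas2 lay above it. Among 6138 genes with a mean FPKM of 2 to 20, a range chosen after the values were seen, 88.0% differed by less than Slc4a1, 87.2% by less than Gata1, 84.6% by less than Klf1 and 78.7% by less than Alas2. Past a log2 difference of 0.32 lay 9.37% of these 6138 genes in the higher and 6.76% in the lower direction, and of the 4 genes Gata1 in the higher and Klf1 and Slc4a1 in the lower.

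In abundance, Hba-x ranked 14 and Hbb-y 16 among all genes in WT, and they ranked 18 and 13 in KD. Actc1, listed at 0 for too many reads, was ranked as 0, so its true place is not counted. Hbb-bh1 ranked 39 in WT and 43 in KD, and Hba-a2 430 and 365. The regulators and the enzyme were far down the list, with Alas2 at rank 5612 and Gata1 at rank 9185 in WT. Klf1 and Slc4a1 stood close to each other in both groups, at ranks 5762 and 5785 in WT and 6534 and 6634 in KD.

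**Figure D3:**
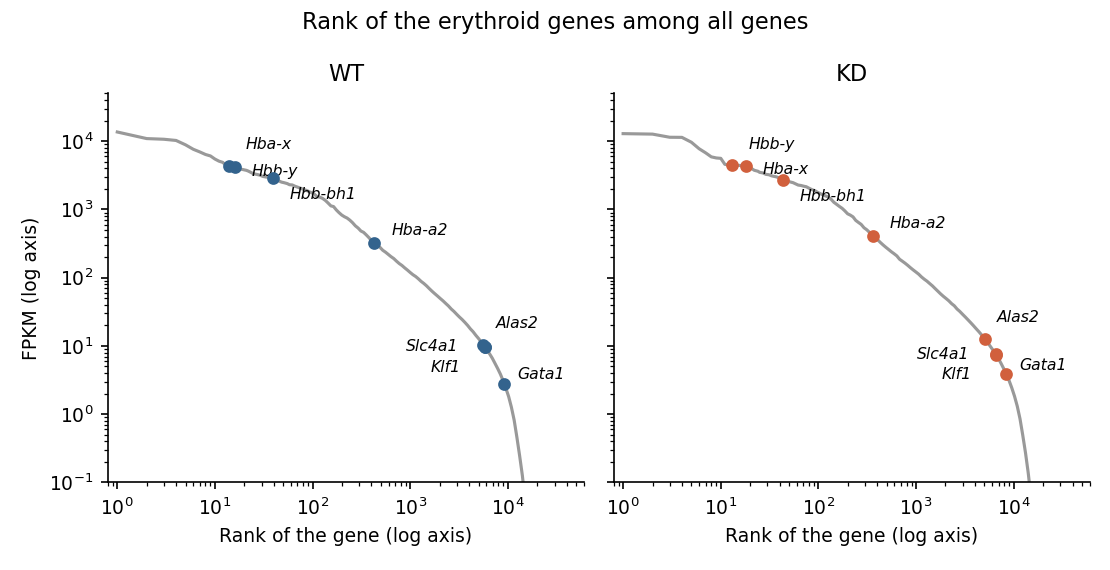
FPKM of all genes against their rank (grey line, both axes log) in WT (left) and KD (right), with the 8 genes as points. The embryonic globins stand in the upper 43 ranks in both groups, while Alas2, Klf1, Slc4a1 and Gata1 lie at 12.8 FPKM or less.

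A difference of at least 1.5-fold on the log2(FPKM + 1) scale was taken as the mark for comparison, among genes with at least 1 FPKM in either group. Of all 11606 such genes, 2.20% were higher and 1.46% lower in KD by that much. Of the 8 genes with a row of their own, 0 were higher and 0 were lower by that much. At the milder mark of 0.32 on the log2 scale, Hba-a2 and Gata1 were higher and Klf1 and Slc4a1 lower, so 2 of 8 in each direction, against 8.80% of all genes higher and 6.40% lower. In all, 4 of the 8 had the larger value in KD and 4 in WT. Their median log2 difference was 0.04 and ranged from -0.37 to 0.36, beside a median of 0.00 and an interquartile range of -0.13 to 0.14 over all genes. The 4 globin rows alone had a median of 0.04, and Alas2, Gata1, Klf1 and Slc4a1 a median of -0.02.

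The other genes of the red cell program were counted in 6 lists of 89 genes in all, of which 87 had a row and 76 had at least 1 FPKM in either group. Among these 76, 3 were higher and 3 lower in KD by at least 1.5-fold, against 2.20% and 1.46% of all genes. Of these 6, 3 are the adult beta globin rows described above. With a pseudocount of 0.1 the counts were 3 higher and 8 lower, against 4.48% and 3.10% of all genes. At the milder mark of 0.32 they were 5 higher and 12 lower, against 8.80% and 6.40%. At 2-fold, 2 were higher (the Hbb-b1 row and Bcl11a) and 1 was lower (the Hbb-b2 row), against 0.646% and 0.577% of all genes. The Hbb-b1 and Hbb-b2 rows share a position, as said above, and are not separate measurements in this count or in that at 1.5-fold. The median log2 difference of the 76 was 0.04.

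In haem synthesis, 14 of 14 genes were measured, 7 with the larger value in KD and 7 in WT, with a median of 0.00. Tmem14c, a mitochondrial carrier of haem precursors, was the most abundant, with 280 FPKM in WT against 276 FPKM in KD. Abcb6, a porphyrin transporter, was the 1 gene past 1.5-fold, with 10.8 FPKM in WT against 6.28 FPKM in KD. The log2 differences of the list ranged from -0.69 to 0.25, and that of Alas2, at 0.28, lay just above the highest of them.

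Among erythroid transcription factors other than Gata1 and Klf1, 11 of the 14 measured had the larger value in KD. Their median log2 difference was 0.11, beside 0.00 over all genes. Endothelial and endocardial markers had a similar median of 0.10, and which cells held these factors was not tested. Lyl1, a member of the Tal1 family, had 20.4 FPKM in WT against 22.5 FPKM in KD. Tcf3, the E protein that pairs with Tal1, had 17.6 FPKM in WT against 20.5 FPKM in KD. Bcl11a, a repressor of embryonic globin genes in definitive red cells, had 1.10 FPKM in WT against 3.33 FPKM in KD, a log2 difference of 1.05, and was the 1 factor past 1.5-fold. The WT value of Bcl11a lay near the minimum of 1 FPKM, and the cells that held the transcript are not known. In those same groups the embryonic globins differed by no more than 0.11 on the log2 scale, and a link to Bcl11a was not tested. Myb, a factor of definitive blood cells named after its values were seen, was at 0.0976 FPKM in WT against 0.0278 FPKM in KD.

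Among red cell membrane genes, 16 of 19 were measured and none differed by 1.5-fold, with 7 having the larger value in KD and 9 in WT. The list's median of -0.13 lay on the same side of 0 as Slc4a1. The most abundant were the glucose transporter gene Slc2a1, with 561 FPKM in WT against 499 FPKM in KD, and the tropomodulin gene Tmod1, with 102 FPKM in WT against 96.0 FPKM in KD, both of which other cells of the heart also use. Many of the others lay at 1 to 3 FPKM, where adding 1 shrinks a difference. With a pseudocount of 0.1, 5 of the 16 were lower in KD by at least 1.5-fold and 0 were higher, against 3.10% and 4.48% of all genes. These 5 are the spectrin gene Sptb, the protein 4.2 gene Epb42, Ermap, the adducin gene Add2 and the water channel gene Aqp1, at 0.613 to 1.93 FPKM in KD and 1.06 to 3.30 FPKM in WT, and were named after their values were seen.

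Genes of iron uptake and storage included 10 measured genes, 7 with the larger value in KD and none past 1.5-fold, with a median of 0.04. The ferritin light chain gene Ftl1 had 3278 FPKM in WT against 3669 FPKM in KD, and the heavy chain gene Fth1 had 1125 and 1169 FPKM. Of the other red cell proteins 19 of 22 were measured, 13 with the larger value in KD, with a median of 0.08. Prdx2, an abundant peroxidase of red cells, had 685 FPKM in WT against 715 FPKM in KD, and the peroxidase gene Gpx1 had 606 and 655 FPKM. Tspan33, a tetraspanin of erythroid cells, was the 1 gene past 1.5-fold, with 2.10 FPKM in WT against 0.916 FPKM in KD.

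Gata1 and several of its partners also act in megakaryocytes, the platelet-forming cells, so their markers are given beside it. All 11 megakaryocyte markers had the larger value in KD. Of the 10 with at least 1 FPKM in either group, 5 were higher by at least 1.5-fold, against 2.20% of all genes. These 10 had a median log2 difference of 0.69. With a pseudocount of 0.1, 8 of the 10 were higher by at least 1.5-fold, against 4.48% of all genes. None of the 11 was at 0 in either group, and their summed level was 51.3 FPKM in WT against 115 FPKM in KD. Most of that sum was Pf4, platelet factor 4, with 38.5 FPKM in WT against 86.9 FPKM in KD. This difference moves with that of Gata1, and its part in it was not tested. Of the other genes of the set with a row of their own, Hba-a2, Alas2 and Hbb-y also had the larger value in KD, and Hba-x, Hbb-bh1, Klf1 and Slc4a1 had the larger value in WT. This marker list was chosen with earlier results of these data known, and Pf4 was named after its values were seen.

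Of the markers of other cells, 11 of 12 cardiomyocyte genes were measured, with Myl7 at 13643 FPKM in WT, none past 1.5-fold and a median of -0.03, so the labelled tissue had its defining markers in both groups. The remaining one, Actc1, is listed at 0 with a status that marks too many reads to process, so its level is not measured here. Endothelial and endocardial markers had a median of 0.10 over 9 genes, none past 1.5-fold. The 8 liver and visceral endoderm markers, fixed as a check for other embryonic tissue, were all below 1 FPKM in both groups, and their defining genes Afp and Alb were at 0.294 FPKM or less. Of 10 macrophage and leukocyte markers, Lyz2 alone reached 1 FPKM. The markers named in this paragraph were chosen after their values were seen. Tbx5ua, the targeted lncRNA, is not analysed here, so the genotype labels have no check from its level.

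**Figure D4:**
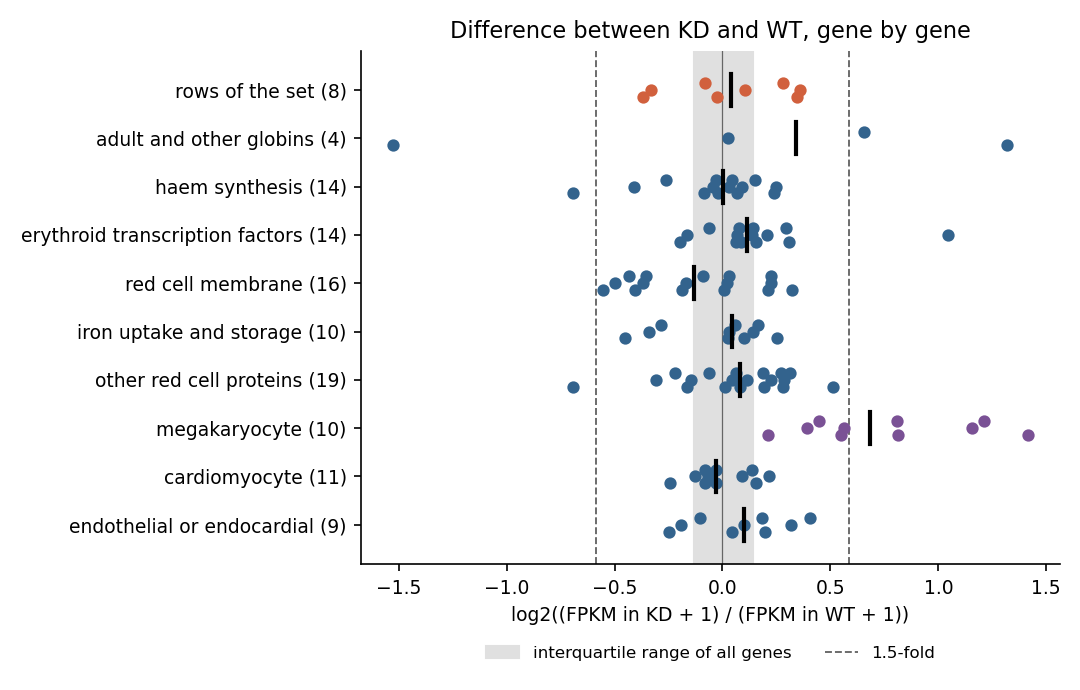
Difference between KD and WT on the log2(FPKM + 1) scale for each measured gene (points, number of genes in brackets) of the set, of the 6 other erythroid lists and of 3 lists of cell markers, with each list's median (bar), the interquartile range over all genes (grey) and 1.5-fold (dashed). The 8 rows of the set lie between -0.37 and 0.36, and the megakaryocyte markers lie to the right of 0 with a median of 0.69.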

How the data were processed

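RNA-seq libraries were made from 10 ng of ventricle total RNA by Smart-Seq2, with 12 cycles of preamplification and 9 of enrichment PCR. TopHat, Bowtie2, Cuffdiff and build mm10 are named in the submitters' processing notes, without versions. The deposited table from the authors gives 1 FPKM value per gene and group. Its columns of log2 fold changes, test scores, p-values, q-values and significance hold the authors' own comparison and were not used. No columns of single embryos were at hand, so depth, SD and new tests could not be computed.

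Differences were computed as log2(FPKM + 1), KD minus WT, over genes with at least 1 FPKM in either group, and counted at 1.5-fold. Table starts count from 0 and were given with 1 added. The 9 genes and all lists were chosen with earlier results of these data known. Named were all 9 genes, the other globins, and from each other erythroid list the 2 most abundant genes in WT and every gene past 1.5-fold. Other named genes are said to be chosen after their values were seen. A gene that this rule names is not reported here. The plan counted 9 rows, and 8 were found, so medians are over 8. Older symbols were matched through RefSeq. Alternatives were other pseudocounts (0.1 and 10), marks (1.25-fold and 2-fold), filters, scalings and subsets. Python 3.11.15, NumPy 2.4.6, pandas 2.3.3 and Matplotlib 3.10.9 were used.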

Additional observations from a re-analysis of the deposited data

How the results depend on the processing

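No paired analysis was possible because each group has 1 pooled value, and leaving out single embryos or a replicate block could not be run for the same reason. Of 48 values of the 8 genes under 6 other settings, 47 had the sign of the value in the text and 0 passed 1.5-fold. The exception was Hba-x, at 0.00 less the median of the cardiomyocyte markers. A change of pseudocount cannot change a sign, and the other settings shifted all values by at most 0.03 on the log2 scale. These counts were thus largely fixed in advance and do not measure robustness. With a pseudocount of 10 the differences shrank to 0.16 for Alas2, 0.12 for Gata1, -0.17 for Klf1 and -0.19 for Slc4a1, as it must for low values. At the mark of 0.32 on the log2 scale, 2 of the 8 were higher and 2 lower in place of 0 and 0. The median of 0.04 became -0.03 without Hba-a2 and 0.00 with the joint Hba-a1 row, a setting chosen after seeing the data.

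The globin share of the summed FPKM became 1.53% in WT and 1.52% in KD without the 10 highest other genes. The count of other erythroid genes past the mark became 5 higher and 12 lower of 76 at 0.32, against 8.80% and 6.40% of all genes. It was 3 higher and 8 lower of 76 with a pseudocount of 0.1, against 4.48% and 3.10% of all genes, and 2 higher and 1 lower at 2-fold, against 0.646% and 0.577%. The unknown depth limits most the genes at 1 to 3 FPKM, whose precision cannot be stated.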
